A study of Homo sapiens and Homo sapiens
Mus musculus and Mus musculus with 200 samples.

Results

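TWIST1 binding was compared between HEK293 cells that received TWIST1 alone and HEK293 cells that received TWIST1 together with the homeodomain factor PHOX2A. Chromatin immunoprecipitation followed by sequencing (ChIP-seq) with a TWIST1 antibody gave 1 library and 1 peak list for each condition, 2 of the 200 samples of the series. HEK293 is a human embryonic kidney line, of wild-type genotype per the labels. All cells carried the plasmid pcDNA3.1_V5-TWIST1, those of the second sample also carried pcDNA3.1_PHOX2A-Flag, and both were harvested 24 h after transfection. Both factors were thus supplied from plasmids, and the labels give neither the ratio of the plasmids nor the protein levels reached. Peaks of the TWIST1-alone list that overlapped a PHOX2A-list peak by at least 1 bp were called kept and the others lost. Peaks of the PHOX2A list were called shared or gained in the same way. With 1 library per condition there is no replicate check on these calls, and intervals below are Wilson 95% intervals that cover counting error only.

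TWIST1 is a basic helix-loop-helix (bHLH) factor that pairs with E proteins and binds E-boxes. It is known for its roles in neural crest and mesenchyme. PHOX2A is a homeodomain factor of the paired-like class, known for specifying noradrenergic and other autonomic neurons, and ALX4 is a paired-like homeodomain factor of the face and limb. Homeodomains recognise a short core, TAAT on one strand and ATTA on the other, and a bHLH site with such a core at a fixed distance can be bound by both factors together.

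The TWIST1-alone list held 15395 peaks and the PHOX2A list 7023. Of the TWIST1-alone peaks, 3812 were kept (24.8%, interval 24.1 to 25.5%) and 11583 were lost (75.2%). Of the PHOX2A-list peaks, 3807 were shared (54.2%) and 3216 were gained (45.8%, interval 44.6 to 47.0%). The classes differed in sequence. An E-box followed after 6 bp by ATTA stood in 217 gained sites (6.75%), in 172 shared sites (4.52%) and in 47 lost sites (0.406%). Windows 1000 bp to either side held it in 0.280%, 0.197% and 0.173% for these classes. The ratio of sites to such windows was 24.1 for gained, 22.9 for shared and 2.35 for lost sites. The arrangement was thus common in shared sites as well, which were also bound with TWIST1 alone.

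The sequences below show that arrangement in the strongest of the gained sites that hold a composite motif. The composite motif searched was an E-box, 4 bases, and then a homeodomain site (TAATTA or TAATTG, read on either strand), within 100 bp of the summit on either side. The E-box was CAGATG, its reverse complement CATCTG, the palindrome CATATG or the palindrome CAGCTG. In each of these the letters ATTA begin 6 bp after the E-box. The first 6 lines are the strongest gained sites with the motif, and the seventh is the next strongest that overlapped none of 4 other libraries of wild-type TWIST1 without a partner. Each line gives 15 bases to either side in hg38, read so that the E-box comes first, and capitals mark the E-box and the homeodomain site.

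SOX9 distal site, LINC00511 intron, chr17:72376645-72376690, minus strand: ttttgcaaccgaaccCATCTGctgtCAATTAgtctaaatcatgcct
LGI1 site, intergenic, chr10:93816338-93816383, plus strand: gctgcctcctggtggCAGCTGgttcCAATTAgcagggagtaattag
SEMA3E site, intron, chr7:83589037-83589082, plus strand: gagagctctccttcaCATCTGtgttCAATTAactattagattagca
CAT site, intergenic, chr11:34426891-34426936, plus strand: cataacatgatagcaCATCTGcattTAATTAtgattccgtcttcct
SMIM36 site, intergenic, chr17:55589132-55589177, plus strand: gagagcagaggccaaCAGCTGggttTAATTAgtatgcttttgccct
ATRAID site, intron, chr2:27215194-27215239, plus strand: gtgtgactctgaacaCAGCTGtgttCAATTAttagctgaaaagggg
SDK1 site, intergenic, chr7:3212781-3212826, minus strand: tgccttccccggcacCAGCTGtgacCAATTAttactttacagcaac

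The gap of 4 bases was set by the search, and all but the CAT and SMIM36 sites have CAATTA as the homeodomain site. Their E-boxes differ, CATCTG at the SOX9, SEMA3E and CAT sites and CAGCTG at the others. The composite motif was present in 79 gained sites (2.46%, interval 1.98 to 3.05%), against 0.0933% of windows placed 1000 bp to either side of the gained sites. Shared sites had it in 46 cases (1.21%, flanks 0.0394%) and lost sites in 13 cases (0.112%, flanks 0.0345%). The difference between gained and lost sites was 2.34 percentage points (Newcombe interval from the Wilson bounds, 1.86 to 2.94).

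A search over all gaps from 0 to 20 bp between the E-box and ATTA gave 1 gap far above the others. Gained sites had 217 matches at 6 bp, and the next most common gap, 17 bp, had 29. Shared sites had 172 at 6 bp and 21 at the next gap, 16 bp. Lost sites had 47 at 6 bp and 38 at 2 bp. This wider arrangement, which asks only for ATTA and not for a full 6-base homeodomain site, was chosen after the gap counts had been seen. The 6 bp gap occurred in 0.280% of the flank windows of gained sites, 0.197% of those of shared and 0.173% of those of lost sites. The plot of gap against share shows the single peak in gained and shared sites. Lost sites were far lower at 0.406%, though above their own flanks.

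**Figure D1:**
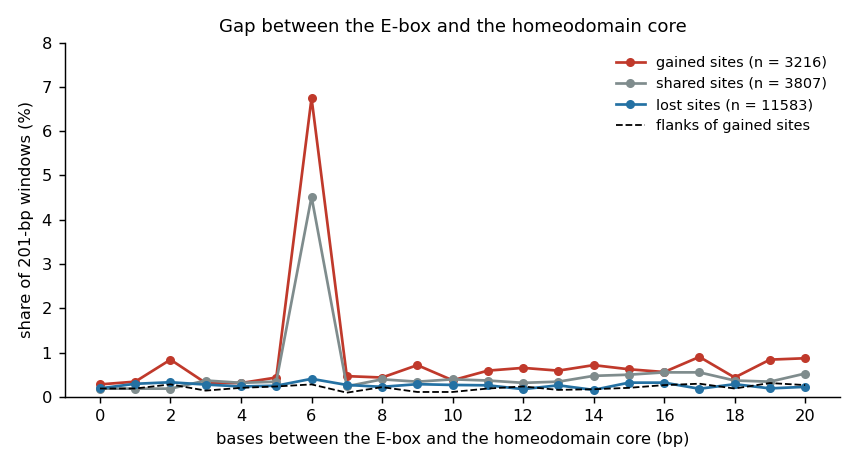
Share of windows reaching 100 bp to either side of the summit (y axis, %) that hold an E-box followed by the homeodomain core ATTA at each gap in bp (x axis), for gained, shared and lost sites and for the flanks of gained sites. At 6 bp gained sites reach 6.75% and shared sites 4.52%, while lost sites stay at 0.406%.

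Within the 217 gained sites that hold the arrangement, the E-box was most often CATCTG (84 sites, 38.7%) or CAGCTG (72 sites, 33.2%). In the 440 ALX4-gained sites with the arrangement the order was the other way round, with CAGCTG in 43.9% and CATCTG in 32.0%. The intervals of the CAGCTG shares were 39.3 to 48.5% with ALX4 and 27.3 to 39.7% with PHOX2A. Those of the CATCTG shares were 27.86 to 36.55% with ALX4 and 32.48 to 45.33% with PHOX2A. The intervals with ALX4 and with PHOX2A overlap for both words. The sets are not separate, since 130 of the 217 sites overlapped an ALX4-gained site. The pair of bases just before ATTA was TA in 17.5% of the PHOX2A-gained sites (interval 13.03 to 23.1%) and in 9.77% of the ALX4-gained sites (7.34 to 12.9%). CA stood there in 14.7% and 15.5%. The match lay at a median of 43 bp from the summit in gained sites, 31.5 bp in shared sites and 42 bp in the 47 lost sites. Whether the matches centre on the summit was not tested.

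E-boxes, counted with or without other motifs, were frequent in every class. They were in 54.0% of gained, 64.2% of shared and 49.9% of lost sites, against 22.5 to 23.3% of their flanks. The homeodomain site, also counted with or without other motifs, was in 19.9% of gained sites and 15.2% of their flanks. In shared sites it was in 12.6% against 13.4% of flanks, and in lost sites in 7.79% against 12.8%. Base composition differed with the class: the median GC content was 47.3% in gained windows, 52.7% in shared and 52.7% in lost windows. The part of GC content in the homeodomain shares was not tested. A double E-box with a 5 bp gap showed another order, with 0.529% of gained, 2.57% of shared and 0.863% of lost sites.

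A pair of homeodomain cores, TAAT and then ATTA with 3 bases between, which paired-class homeodomains can bind as dimers, was also counted. It was in 34 gained sites (1.06%, interval 0.758 to 1.47%) against 0.653% of their flanks, and in 12 lost sites (0.104%) against 0.574%. It was in 20 of the 994 gained sites absent from 4 other HEK293 libraries of wild-type TWIST1 without a partner. This is 2.01% (interval 1.31 to 3.09%) against 0.654% of flanks. Sites gained with ALX4 under the same stricter rule, 3617 in all, held it in 30 cases. This is 0.829% (0.582 to 1.18%) against 0.816% of flanks. Over the whole PHOX2A list the pair was near its flanks, at 0.641% against 0.577%. In the 2000 strongest PHOX2A-list peaks it was below them, with 6 sites (0.300%) against 0.575%. The pair with 2 bases between was not above its flanks in gained sites (0.435% against 0.560%). The 3 strongest gained sites with this pair 3 bases apart and no composite motif are shown because they lack the composite motif, and capitals mark the pair.

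ETV1 distal site, intron of a long non-coding RNA, chr7:13467164-13467204, plus strand: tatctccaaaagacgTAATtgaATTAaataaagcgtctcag
ACKR3 site, intergenic, chr2:236608327-236608367, plus strand: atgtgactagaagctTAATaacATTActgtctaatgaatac
ELAVL2 promoter site, chr9:23825328-23825368, plus strand: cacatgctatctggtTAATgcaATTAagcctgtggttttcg

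The ETV1 site (ETV1 is an ETS transcription factor) had a −log10 q of 56.8 and ranked 114 in the PHOX2A list. The ACKR3 site, near the gene for an atypical chemokine receptor, ranked 458. Neither overlapped any of the 4 other libraries without a partner. The ELAVL2 site, 869 bp from the start of a neuronal RNA-binding protein gene, ranked 790 and overlapped all 4.

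The first control was the peak over the transfected genes themselves, since plasmid DNA carries coding sequence. A peak over PHOX2A exons was found in the PHOX2A list (−log10 q 52.0, rank 135) and in none of the other 5 TWIST1-antibody lists of the same plasmid series. A peak over ALX4 exons was likewise found only in the ALX4 list (rank 73). The TWIST1 start (chr7:19116711-19117153) held the third strongest peak of the TWIST1-alone list, with a −log10 q of 177, and no peak in the PHOX2A list. The plasmid and the chromosomal copy cannot be told apart at these genes, so the PHOX2A peak among the gained sites and the TWIST1 peak among the lost sites are not read as binding. That TWIST1 peak is the strongest lost site. Of the lists with a partner only that with PRRX1a also had it, and the PRRX1a, PRRX1b and MSX1 lists had no peak over PRRX1 or MSX1 exons. The PHOX2A list had a weak peak over PRRX1 exons (−log10 q 4.72, rank 3882) although no PRRX1 plasmid was used, so a peak over exons need not come from a plasmid.

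Peak strength differed between the classes. The median −log10 q, the authors' value for each peak, was 8.54 for kept and 3.83 for lost peaks within the TWIST1-alone list. Within the PHOX2A list it was 6.87 for shared and 3.93 for gained peaks. Of the 500 strongest TWIST1-alone peaks 46 were lost (9.20%), and of the 3395 weakest 91.0% were lost. Of the 500 strongest PHOX2A-list peaks 68 were gained (13.6%), against 60.5% of the weakest 3000 among the first 7000. The plot by rank shows that both shares were larger in each weaker group.

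**Figure D2:**
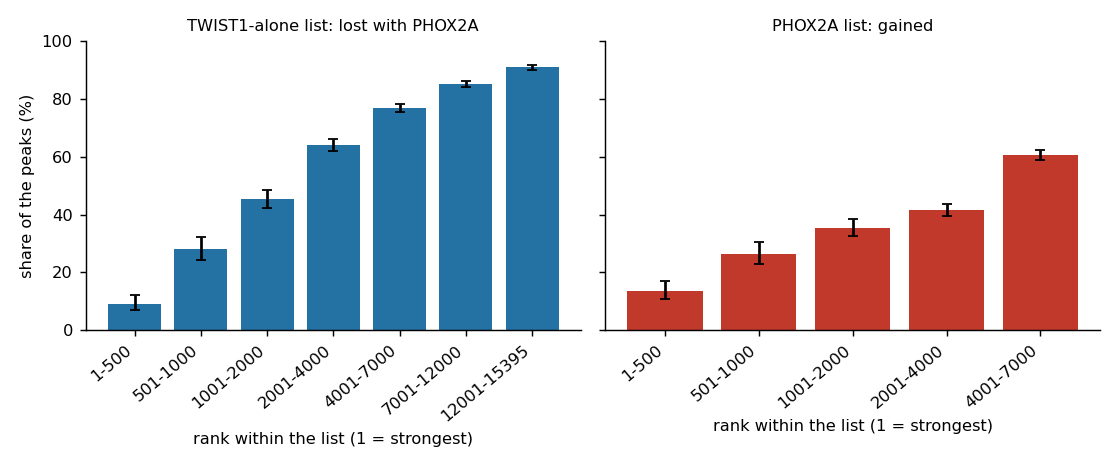
Share of peaks (y axis, %) that were lost, in the TWIST1-alone list, or gained, in the PHOX2A list, by rank within the list (x axis, 1 is the strongest); bars carry Wilson 95% intervals and ranks past 7000 of the PHOX2A list are not drawn. The lost share runs from 9.20% to 91.0% and the gained share from 13.6% to 60.5%.

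The shorter PHOX2A list bears on the size of the lost class. With the TWIST1-alone list cut to its 7023 strongest peaks the kept share was 39.6%, and with the 2000 strongest peaks of each list it was 46.1%. Read depth is not known from the lists. Among the gained sites, 17 lay within 100 bp of a TWIST1-alone peak without touching it, the nearest at 16 bp, and the median distance was 39498 bp. Among shared sites, 15 overlapped by under 50 bp, the smallest overlap being 7 bp, with a median of 467 bp.

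The 4 strongest gained sites outside chromosome 8 all lay away from promoters. The strongest (rank 48, −log10 q 79.99, chr2:20188621-20189331) lay 34390 bp from SDC1, which encodes a cell-surface proteoglycan, and held none of the 4 E-box words. The second (rank 77, chr1:192488813-192489738) lay 86509 bp from RGS1, a regulator of G-protein signalling, with CATCTG. The third is the SOX9 distal site (rank 83, chr17:72376162-72377210), 255648 bp from SOX9, a transcription factor of cartilage and neural crest. The fourth (rank 84, chr1:232977899-232979048) lay in a UTR of NTPCR, 7242 bp from PCNX2. All 4 overlapped the ALX4 list and all 4 overlapped both neural crest TWIST1 lists. The SOX9 site overlapped none of the 4 other libraries without a partner, and the other 3 sites overlapped 2 each.

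The 4 strongest shared sites overlapped all 4 of those libraries and the lists with ALX4, PRRX1a, PRRX1b and MSX1. Their nearest genes were SUB1, a transcriptional coactivator (rank 1, −log10 q 264, chr5:32489565-32490545), WDR62, a spindle-pole protein (rank 2, chr19:36070137-36071095), RYBP, a Polycomb subunit (rank 3, chr3:72306806-72307781), and CD180 (rank 4, chr5:67268231-67269228). After the TWIST1 peak, the strongest lost sites were near INSC, a spindle-orientation gene (rank 113 of the TWIST1-alone list, chr11:15589970-15590751), KIAA0930 (rank 143, chr22:45246214-45246955) and in an intron of RPTOR, an mTORC1 subunit (rank 177, chr17:80832900-80833592). These 3 overlapped all 4 other libraries without a partner. The RYBP site, read on the minus strand, held CATCTG with ATTA 6 bp behind it, so the arrangement also stood in a top shared site. The 2 sequences below show an E-box with no homeodomain core behind it in another shared site and in a lost site.

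WDR62 site, shared, intron, chr19:36070506-36070541, plus strand: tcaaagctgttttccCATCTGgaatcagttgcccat
INSC distal site, lost, intron of a long non-coding RNA, chr11:15590350-15590385, plus strand: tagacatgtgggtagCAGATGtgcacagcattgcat

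Because gained was called against 1 list, the gained sites were looked up in 4 other HEK293 libraries of wild-type TWIST1 without a partner. The pCAG-TWIST1 library (TWIST1 antibody, 50196 peaks) overlapped 49.5% of gained, 91.9% of shared and 71.7% of lost sites. The V5-antibody libraries of pcDNA3.1_V5-TWIST1(WT) overlapped 43.6%, 33.1% and 53.8% of the gained sites in replicates 1, 2 and 3. They overlapped 61.5%, 51.8% and 78.4% of lost sites and 90.3%, 82.9% and 93.9% of shared sites. In each of the 4 libraries the gained share was the lowest of the 3 classes. Of the 3216 gained sites, 994 (30.9%, interval 29.3 to 32.5%) were in none of the 4, 682 (21.2%) were in all 4, and 2222 (69.1%) were in at least 1. Of the lost sites, 10.8% were in none and 36.7% in all 4. The control library of cells that received pUC19 and no TWIST1 plasmid, immunoprecipitated with the V5 antibody, overlapped 0.249% of gained and 0.803% of lost sites.

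The arrangement of E-box and ATTA followed this split. Of the 994 gained sites absent from the 4 libraries, 111 held it (11.2%, interval 9.36 to 13.3%), and of the 682 present in all 4, 7 held it (1.03%, 0.498 to 2.10%). The flanks of these groups were at 0.352% and 0.440%. The composite motif was in 3.52% and 0.440% of the sites. The bar plot of the arrangement by class shows these values beside those of the lists with other partners.

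**Figure D3:**
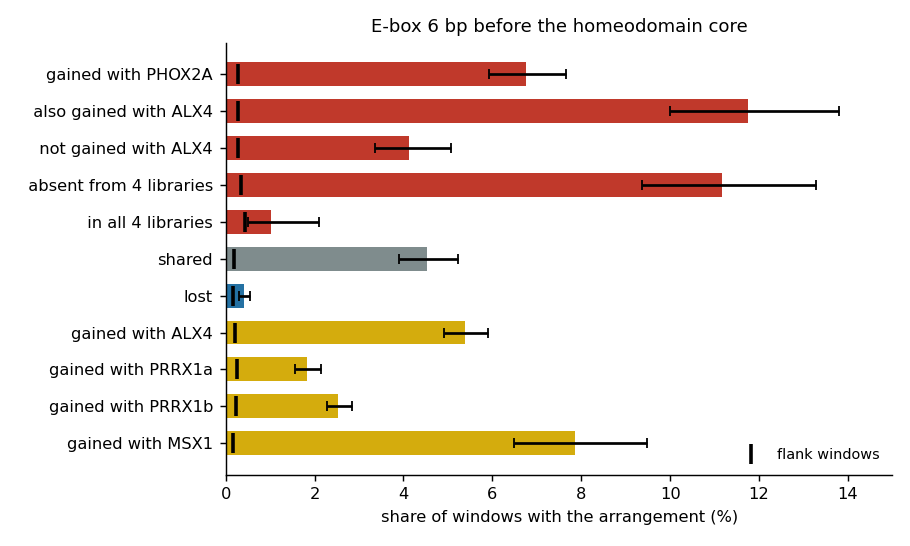
Share of windows reaching 100 bp to either side of the summit (x axis, %) with an E-box 6 bp before the homeodomain core, for the classes of PHOX2A sites and for sites gained with other partners against the same TWIST1-alone list; bars carry Wilson 95% intervals and black ticks mark flank windows. Gained sites absent from the 4 other libraries without a partner (11.2%) and those also gained with ALX4 (11.8%) lie highest, and lost sites (0.406%) lowest.

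Sites gained with ALX4 were called against the same TWIST1-alone list, so the comparisons with PHOX2A and with ALX4 share their control. Of the 12505 ALX4-list peaks 8171 were gained (65.3%). Of the PHOX2A-gained sites 1106 overlapped an ALX4-gained site. This is 34.4% of the sites gained with PHOX2A (interval 32.8 to 36.0%) and 13.5% of those gained with ALX4. The whole ALX4 list overlapped 34.8% of PHOX2A-gained, 57.8% of shared and 18.3% of lost sites. The other 2110 PHOX2A-gained sites were not gained with ALX4, a call that rests on 1 ALX4 list of 12505 peaks. The pCAG library with ALX4 overlapped 49.4% of these 2110 sites, and the V5 libraries with ALX4 38.4%, 50.4% and 67.9%. For the 1106 sites gained with both, the values were 84.0%, 87.4%, 92.7% and 97.0%. Not gained with ALX4 therefore means absent from that 1 call only. The sites gained with both were stronger within the PHOX2A list, with a median −log10 q of 6.46 against 3.22. The arrangement was in 11.8% of them (130 sites, interval 9.99 to 13.8%) and in 4.12% of the sites not gained with ALX4 (87 sites, 3.35 to 5.06%). The part of peak strength in this difference was not tested.

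Called in the same way, 65.2% of the PRRX1a list, 69.7% of the PRRX1b list and 49.9% of the MSX1 list were gained. The arrangement was in 5.38% of the sites gained with ALX4, 1.84% of those gained with PRRX1a, 2.54% with PRRX1b and 7.86% with MSX1. The lists differ in length, from 2498 peaks with MSX1 to 17317 with PRRX1b, and the arrangement was more frequent in strong peaks, so these shares give no order of the partners. It was in 105 of the 500 strongest peaks of the PHOX2A list, 95 of those of the ALX4 list and 49 of those of the TWIST1-alone list. Of the weakest 3000 among the first 7000 PHOX2A-list peaks 1.63% held it. These partners are homeodomain factors of the face and limb. The PRRX1a list overlapped 24.2% of PHOX2A-gained, 49.6% of shared and 20.5% of lost sites, and the PRRX1b list 31.4%, 58.5% and 25.8%. The MSX1 list, the shortest with 2498 peaks, overlapped 6.00%, 22.5% and 3.36%. All 3 lists overlapped more of the sites gained with both PHOX2A and ALX4 than of those not gained with ALX4: 42.9% against 14.4% for PRRX1a, 54.9% against 19.1% for PRRX1b and 12.1% against 2.80% for MSX1.

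Libraries with ALX4 that had no part in the calls also overlapped the PHOX2A-gained sites. The library of pCAG-TWIST1 with pCAG-ALX4-Flag-HA overlapped 61.3% of gained, 85.2% of shared and 49.4% of lost sites. The V5 libraries with pcDNA3.1_ALX4-Flag overlapped 55.3%, 64.9% and 77.9% of gained sites in replicates 1, 2 and 3, a mean of 66.0% ± 11.4 (SD, n = 3). The V5 libraries without ALX4 had a mean of 43.5% ± 10.4 (SD, n = 3), and the 2 groups did not overlap. The difference was 22.6 percentage points, higher with ALX4 (exact two-sided permutation p = 0.1, the smallest that 3 against 3 allows). After Benjamini-Hochberg adjustment over the 3 classes this permutation p was 0.3. For lost sites the means were 52.7% ± 13.9 with and 63.9% ± 13.5 without ALX4 (SD, n = 3; exact permutation p = 0.4, adjusted 0.6), and the groups overlapped. For shared sites they were 86.2% ± 7.56 and 89.0% ± 5.62 (SD, n = 3; exact permutation p = 0.8, adjusted 0.8). The labels do not say that the replicates came from separate cultures, so these p-values measure only the spread between the samples.

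The V5 lists ranged from 22465 to 65005 peaks, and the shares moved with the length. With the 10000 strongest peaks of each library, gained sites were overlapped at 33.5%, 32.7% and 32.1% with ALX4 and at 20.3%, 17.4% and 18.7% without. The means were 32.8% ± 0.732 and 18.8% ± 1.45 (SD, n = 3; exact permutation p = 0.1, unadjusted). At this length the shared sites had 53.5% ± 2.72 with and 67.4% ± 3.72 without ALX4, and the lost sites 15.8% ± 1.42 and 29.1% ± 1.08 (SD, n = 3; exact permutation p = 0.1 for each, unadjusted). The groups did not overlap in any of the 3 classes, with gained sites higher and shared and lost sites lower with ALX4. Of the 994 gained sites absent from the 4 other wild-type libraries without a partner, 752 (75.65%) were in at least 1 of the 5 libraries with ALX4. In all 5 were 221 (22.2%), and in none 242 (24.35%). Over all 3216 gained sites these shares were 86.9%, 25.6% and 13.1%.

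**Figure D4:**
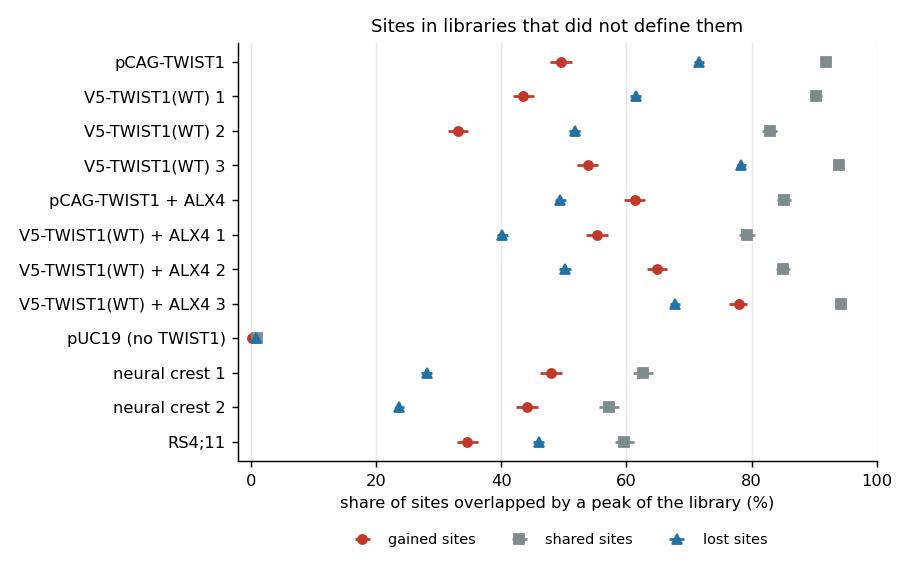
Share of gained, shared and lost sites (x axis, %) overlapped by each library that did not define them (y axis), with Wilson 95% intervals. Gained sites lie below lost sites in the 4 libraries of TWIST1 without a partner and above them in the 4 with ALX4 and in both neural crest lists.

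The gained sites that no ALX4 library held were 420 (13.1%). They had the arrangement in 7 cases (1.67%, interval 0.810 to 3.40%) and an E-box in 49.5%. The 823 gained sites found in all 5 ALX4 libraries had the arrangement in 93 cases (11.3%, 9.31 to 13.7%) and an E-box in 61.4%.

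Variants of V5-TWIST1 gave 13 further pairs of V5 libraries, 1 with and 1 without ALX4 each. The names are those of the labels, such as HAND2ins, NEUROG2loop, TAL1loop and L138F. Gained sites were overlapped more with ALX4 in 11 of the 13, by a mean of 14.4 percentage points ± 11.7 (SD, n = 13; exact two-sided sign-flip permutation p = 0.00244, adjusted over 3 classes 0.00732). The exceptions were NEUROD1L (21.4% with and 33.1% without) and NEUROD1 loop (18.1% and 22.9%). Their lists were shorter with ALX4, but so were those of L138Y, NEUROG2ins and NEUROG2loop, which were higher with ALX4. The part of list length was not tested. With the 3000 strongest peaks of each library all 13 were higher with ALX4, by a mean of 3.85 points ± 3.73 (SD, n = 13; exact sign-flip permutation p = 0.000244, the smallest 13 pairs allow; adjusted 0.000732). This test describes the set of variants, each with a single library per condition. It treats the 13 as independent, although several names share a stem, such as NEUROD1 or L138.

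With all peaks, lost sites were higher with ALX4 in 9 of 13 variants, with a mean difference of 0.939 points ± 16.1 (SD, n = 13; exact sign-flip permutation p = 0.833, adjusted 0.833). Shared sites were higher in 10 of 13, by a mean of 7.67 points ± 11.2 (SD, n = 13; exact sign-flip permutation p = 0.0330, adjusted 0.0494). The direction for lost sites was the opposite at the fixed length. Lost sites at that length were lower with ALX4 in 12 of 13 variants, with a mean difference of -1.80 points (SD 1.57, n = 13; exact sign-flip permutation p = 0.000488, adjusted 0.000732). Shared sites were higher in 12 of 13, by a mean of 5.69 points ± 5.07 (SD, n = 13; exact sign-flip permutation p = 0.00366, adjusted 0.00366). L138F and L138Y had the largest values for gained sites at the fixed length, 17.0% with ALX4 and 4.54% without for L138F, and 16.2% and 4.48% for L138Y. The other 11 variants lay between 5.94% and 8.02% with ALX4. The same 2 variants had the lowest shares of lost sites with ALX4, 3.25% for L138F and 3.55% for L138Y.

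**Figure D5:**
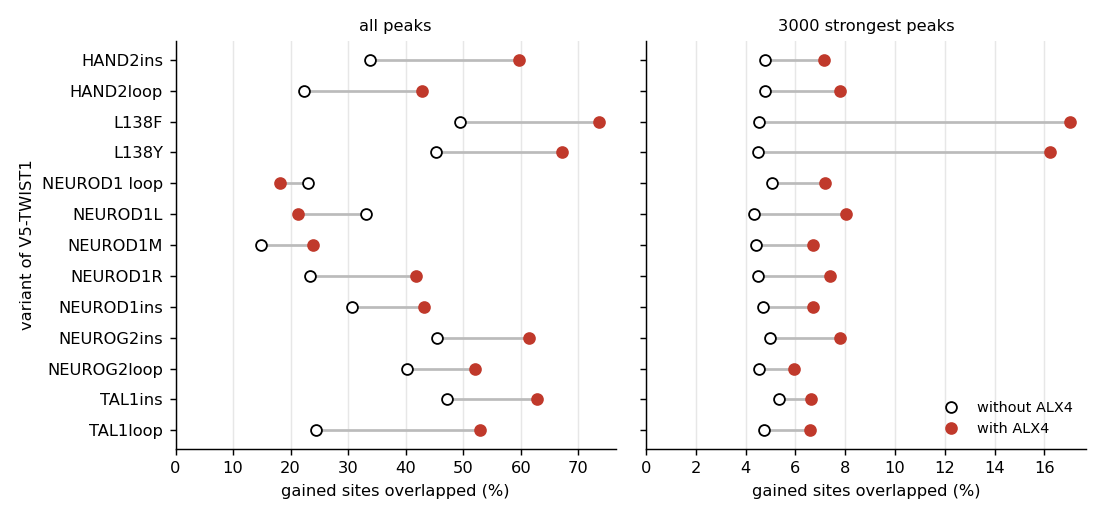
Share of PHOX2A-gained sites (x axis, %) overlapped by V5 libraries of 13 TWIST1 variants (y axis), without ALX4 (open) and with ALX4 (filled), for all peaks (left) and for the 3000 strongest (right). With all peaks 11 of 13 variants are higher with ALX4, and with the 3000 strongest all 13 are, L138F and L138Y by 12.5 and 11.8 points.

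Peak lists of endogenous TWIST1 in other cells gave an independent look at the same sites. Human cranial neural crest cells (hCNCC), differentiated from an embryonic stem cell line, express TWIST1 and ALX factors, and RS4;11 is a human lymphoblast line. The wild-type neural crest lists came from the 0 h point of a treatment with dTAGV-1, a compound that degrades tagged proteins. These lists, of 59282 and 49107 peaks, overlapped 48.0% and 44.1% of gained sites, 62.7% and 57.2% of shared sites and 28.1% and 23.7% of lost sites. The RS4;11 list, of 70826 peaks, overlapped 34.6%, 59.7% and 46.0%. Gained sites were thus above lost sites in both neural crest lists and below them in RS4;11. Sites gained with both PHOX2A and ALX4 were overlapped at 70.8% and 67.8% in neural crest and at 27.8% in RS4;11. Sites gained with PHOX2A and not called gained with ALX4 were overlapped at 36.0% and 31.7% in neural crest and at 38.2% in RS4;11.

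The split was wider for the arrangement. Of the 217 gained sites that hold it, 196 were in the first neural crest list (90.3%), 188 in the second (86.6%) and 26 in RS4;11 (11.98%). Of the 2999 gained sites without it, 44.9% and 41.0% were in the neural crest lists and 36.2% in RS4;11. In HEK293 without a partner the 217 sites were overlapped at 12.9 to 29.5% by the 4 libraries, against 34.5 to 55.6% for the others. With ALX4 outside the calls they were overlapped at 66.8% with the pCAG plasmids and at 71.4%, 86.2% and 91.2% in V5 replicates 1 to 3. The 2999 other gained sites were at 60.9% and at 54.1%, 63.4% and 77.0%, and in the pCAG library the intervals of both groups overlapped (60.3 to 72.7% and 59.2 to 62.7%). V5 lists of ALX1 came from the edited neural crest line ALX1FV and from ALX1FV ALX4-, also at 0 h of dTAGV-1, with 2 clones each. They were short, of 1389 and 376 peaks in ALX1FV and 920 and 1116 in ALX1FV ALX4-. In that order they overlapped 3.14%, 0.995%, 2.64% and 3.27% of gained sites, and 2.60%, 1.02%, 3.1% and 2.81% of shared sites. Neither class was the higher in all 4 lists, and lost sites had at most 0.268%. Of the 217 sites they overlapped 11.98%, 2.76%, 9.22% and 11.5%, against 0.867 to 2.67% of the gained sites without the arrangement.

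As a comparison with a factor of another class, AP2a lists of neural crest overlapped 18.1% and 19.3% of gained, 32.7% and 35.2% of shared and 24.2% and 25.9% of lost sites. AP2a is a transcription factor of neural crest and ectoderm. Gained sites also gained with ALX4 had 18.2% and 19.2%, and those not gained with ALX4 18.1% and 19.3%.

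Gained sites lay farther from transcription starts than the other classes, and more of them lay in introns. Within 1000 bp of a transcription start (GENCODE 44, coding and long non-coding genes) were 28.0% of gained sites (interval 26.5 to 29.6%), 42.9% of shared and 38.2% of lost sites. Introns held 46.5% of gained, 34.7% of shared and 38.7% of lost sites. The median distance to the nearest coding start was 11761 bp for gained, 4556 bp for shared and 6559 bp for lost sites. Of the 217 gained sites with the arrangement 18 were at promoters (8.29%), 129 in introns (59.4%) and 66 between genes (30.4%), with a median distance of 29114 bp.

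The gained sites had 2533 different nearest coding genes, of which 2073 had a single gained site. Over all peaks 45.8% of the PHOX2A list was gained and 75.2% of the TWIST1-alone list lost, and the genes with most gained sites had many peaks of both lists. AUTS2, a gene of neuronal development, had the most, with 10 gained of 22 PHOX2A-list peaks, and 6 of these were also gained with ALX4. NR2F2, the nuclear receptor COUP-TFII, had 9 of 15. EFNA5, an ephrin ligand, had 7 of 13, SOX9 had 7 of 12, and UQCRFS1, a subunit of mitochondrial complex III, had 7 of 15. ZNF608 tied with these at 7 of 22. All of these genes also had lost sites, for example 20 of 32 TWIST1-alone peaks at AUTS2 and 9 of 14 at SOX9. The 7 gained sites of SOX9 lay between 217279 and 487501 bp from its start, and 5 of them were also gained with ALX4. No correction for the length of a locus was made.

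The other named sites with the composite motif varied in how many libraries held them. The LGI1 site (rank 90, −log10 q 62.4), 15179 bp from a gene for a secreted neuronal protein, overlapped all 4 other libraries without a partner and all 5 with ALX4. The SEMA3E site (rank 246), 23635 bp into a gene for a secreted guidance cue, and the SMIM36 site (rank 358), 77684 bp away, overlapped 1 of the 4 each. The CAT site (rank 281), 12006 bp from the catalase gene, the ATRAID site (rank 403), in an intron 1186 bp from a start of that gene, and the SDK1 site (rank 642), 88384 bp from a cell-adhesion gene, overlapped none of the 4. The CAT and ATRAID sites overlapped all 5 libraries with ALX4 and the SDK1 site 4. The TCF4 site (rank 1097, chr18:55300245-55300969), in an intron 2020 bp from a start of this E protein gene, overlapped 1 of the 4 and all 5 with ALX4. Each of these 7 sites was in both neural crest lists, and among them only the CAT site was in the RS4;11 list.

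The 4 gene groups were followed by nearest coding start, with the share of all PHOX2A-list peaks gained (45.8%) and of all TWIST1-alone peaks lost (75.2%) as the comparison. Noradrenergic and visceral neuron genes known with PHOX2A, 24 in all, had 11 PHOX2A-list peaks, of which 6 were gained (54.5%), and 28 TWIST1-alone peaks, of which 23 were lost (82.1%). 1 of the 6 is the PHOX2A exon peak. The other 5 were single sites at TBX3 (−log10 q 15.5), ISL1 (6.37), HAND2 (4.94), HAND1 (2.74) and GATA3 (1.47), all genes of transcription factors, and only the TBX3 site was also gained with ALX4. TH and DBH, which encode enzymes of noradrenaline synthesis, had no PHOX2A-list peak.

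Genes of epithelial-mesenchymal transition and cadherins, 11 in all, had 8 gained of 14 PHOX2A-list peaks (57.1%), and 6 of the 8 were at ZEB2, a repressor of epithelial genes. The others were at TWIST2 and CDH2. SNAI1 and SNAI2 had 1 PHOX2A-list peak each, both shared. Face and limb homeobox genes, 19 in all, had 8 gained of 15 (53.3%): 2 at MSX2, the stronger with a −log10 q of 18.3, and 1 each at LHX8 (15.3), ALX1 (11.2), MSX1 (5.25), DLX1 (4.88), PRRX1 (4.72) and PRRX2 (2.99). E protein and ID inhibitor genes, 7 in all, had 5 gained of 19 (26.3%): 2 at TCF4 and 1 each at ID2, ID3 and ID4. The arrangement was in 1 gained site of TCF4 and 1 of ID3 and in no gained site of the other 3 groups. The first 3 shares lie near the share over all peaks, and with 11 to 19 peaks a group these counts allow no finer statement.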

How the data were processed

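The data were ChIP-seq peak lists, 1 per library. Per the submitters' processing notes the tools included Bowtie2 2.4.1, SAMtools 1.10, MACS2 2.2.7.1 and deepTools 3.5.0, with no roles given, and per the labels the build is hg38. Each deposited list holds a fold enrichment (a ratio) and −log10 p and −log10 q values for each peak, made by the authors. These are the peak's own values and served only to describe and rank peaks within a list. The lowest −log10 q of the 2 main lists was 1.31 and 1.30. Read depth, peak-calling controls and thresholds: not given in the sources used here.

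Repeated intervals were reduced to the summit with the highest −log10 p (16817 lines to 15395 peaks, and 7364 to 7023). Overlaps and motif searches on both strands were written in Python 3 with numpy, pandas and pysam and tested on simulated data, and exact permutation tests used scipy. Samples were grouped by their titles. The members, gene lists and tests were chosen with earlier results of these data known. Sites were named by rule: the 4 strongest gained, shared and lost sites off chromosome 8, the 6 strongest gained with the composite motif, the 4 strongest of those absent from the other libraries without a partner, the 3 strongest with a homeodomain pair 3 bases apart and no composite motif, the 5 genes with most gained sites, and listed genes with a gained composite site. Alternatives changed the overlap, thresholds, list lengths, window and replicates.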

Additional observations from a re-analysis of the deposited data

How the results depend on the processing

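The kept share of 24.8% was 20.2% with a reciprocal overlap of 50%, 17.0% with summits within 100 bp, 29.2% with a −log10 q of at least 5, 46.1% with the 2000 strongest peaks of each list and 39.6% with the TWIST1-alone list cut to the length of the PHOX2A list. The gained share of 45.8% was 55.8% with the reciprocal overlap, 62.6% with summits, 44.9% with the stricter q and 54.0% with the 2000 strongest peaks. The share of gained sites also gained with ALX4, 34.4%, was 27.6%, 23.1%, 45.6% and 38.7% under those 4 settings in that order. The composite motif share of gained minus lost sites stayed above 0 under every setting: 2.34 points as reported, 4.16 with −log10 q of at least 5, 5.09 with the 2000 strongest peaks, 1.40 with a window of 50 bp to either side of the summit, and 1.97 and 1.92 with the other overlap rules. Chosen after seeing the data were 2 settings. Calling gained against all 5 wild-type libraries without a partner gave 14.2% gained, 31.1% of these also gained with ALX4, and 3.41 points. Replacing the composite motif by the E-box 6 bp before ATTA gave 6.34 points.

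The difference of 22.6 points between V5 libraries with and without ALX4 was 13.9 with the 10000 strongest peaks, 18.2 with summits within 100 bp and 16.6 to 27.9 when each replicate was left out in turn. With the replicate number as a block it was 22.6 points (exact paired p = 0.25, the smallest 3 pairs allow). Same-numbered libraries correlated at 0.0643, 0.0595 and 0.0860 in their deviations from the group means, each the highest value for its number. Libraries of different numbers correlated between -0.04955 and -0.01883, all negative. The same-numbered values were positive but below 0.1. Whether the numbers pair the samples was not settled, so both the unblocked and the blocked p are given. The variants' mean difference of 14.4 points was 3.85 with the 3000 strongest peaks and 11.6 with summits within 100 bp. The share of gained sites in the V5 libraries without a partner, a mean of 43.5%, was 29.4% with a reciprocal overlap of 50% and 24.7% with summits within 100 bp. The cause of these shifts was not tested. With 1 library per condition and no read depth, lost and gained cannot be told apart from peaks near the calling threshold.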
